A study of Homo sapiens with 12 samples.

Results

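MHCC97H is a human hepatocellular carcinoma (HCC) cell line, and the 6 libraries described here compared parental MHCC97H cells with MHCC97H cells labelled EGR1 knockout. They are 6 of the 12 RNA-seq libraries of the series, chosen by their labels, with 3 libraries in each group that the labels call biological replicates. The other 6 came from PLC/PRF5, another HCC line, with an empty vector or with EGR1 overexpression, and enter only where a value of MHCC97H is set beside them. The comparison asks which genes other than those of glycolysis differed between the knockout-labelled and the parental cells. Of 22963 gene rows, 11577 had a mean of at least 1 FPKM over the 6 libraries and were tested. FPKM, fragments per kilobase of transcript over all mapped fragments of the library, is a level scaled for transcript length and sequencing depth.

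Both groups were grown in DMEM with 10% serum and differ by label only in the knockout. The titles of the control libraries read Parental, while their descriptions read Mock. Whether these cells had a mock treatment is not given in the sources used here. The knockout cells were made with a lentiviral CRISPR/Cas9 vector carrying a guide RNA against EGR1 and were grown from single clones. Which clone was sequenced is not given in the sources used here, and the 3 knockout-labelled libraries are replicates of clonal cells, whereas the parental cells are a population. A difference between the groups can therefore not be told apart from a difference between that clone and the parental population. In bulk RNA, a smaller share of cells that express a gene and less of its RNA per cell cannot be told apart either.

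EGR1 is a zinc finger transcription factor of the immediate early class: its transcription rises within minutes of growth factor, stress or differentiation signals, largely through ERK signalling and serum response factor. It binds GC-rich sites, and NAB1 and NAB2 are corepressors that bind EGR1 and limit its activity. NAB2 is among its known targets, so that the factor switches on its own brake. A Cas9 cut usually leaves small insertions or deletions in the coding sequence, which can abolish the protein while the mRNA is still made and counted.

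EGR1 mRNA was not lower in the libraries labelled knockout. The gene (chr5:138465490-138469315, plus strand, GRCh38) was listed at 20.2, 23.1 and 21.2 FPKM in the parental libraries and at 35.2, 50.3 and 32.9 FPKM in the knockout-labelled libraries. All 3 knockout-labelled libraries lay above all 3 parental ones, with means of 39.5 ± 9.43 and 21.5 ± 1.48 FPKM (SD, n = 3). The log2 change was 0.83 ± 0.15 (SE, limma, adjusted p = 0.00126), and 0.42 ± 0.16 (limma, adjusted p = 0.0621) once transcript GC content and length were allowed for. The latter was 0.22 without knockout-labelled replicate 2, which did not pass, and 0.56 without knockout-labelled replicate 3, which passed (limma, adjusted p = 0.0652 and 0.0275). With 3 libraries against 3 the exact permutation test gave p = 0.1, the smallest it can give. EGR1 mRNA thus did not fall with the label, which speaks of a gene knockout and not of an mRNA level. These samples are called the knockout-labelled libraries throughout, and no direction of EGR1 activity is drawn from the label. The paper states that knockout clones were checked by western blot and DNA sequencing. Whether the coding sequence was altered in the sequenced cells cannot be read from FPKM.

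NAB1 was lower while EGR1 mRNA was higher, and NAB2 was called lower only after the correction. NAB1 was at 22.5, 18.3 and 16.9 FPKM in the parental libraries and at 7.84, 10.4 and 7.21 FPKM in the knockout-labelled ones, a log2 change of -1.10 ± 0.15 (limma, adjusted p = 0.000286). The gene was also lower once composition was allowed for, at -0.60 ± 0.08 (limma, adjusted p = 0.000935). NAB2 was at 10.3, 10.2 and 12.3 FPKM against 10.7, 10.5 and 10.6 FPKM, and its groups overlapped, with a log2 change of -0.03 ± 0.10 (limma, adjusted p = 0.771). Its transcript is GC-rich, and it was lower only relative to transcripts of like GC content and length, by -0.68 ± 0.07 (limma, adjusted p = 0.0002). With EGR1 overexpression in PLC/PRF5, the corrected changes were 0.45 for NAB1 and 1.69 for NAB2 (limma, adjusted p = 0.00382 and 1.06e-05). EGR2 and EGR3 were below 1 FPKM in all 6 libraries, and EGR4 was listed at 0 in all of them.

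The 100 bases before the RefSeq starts of NAB1 and NAB2 are shown because both genes encode corepressors of EGR1. Capitals mark matches to GCGNGGGCG or to its reverse complement CGCCCNCGC, where N is any base. The sequences come from the RefSeq table (GRCh38.p14), with NAB1 at chr2:190648795-190648894 and NAB2 at chr12:57089014-57089113, both on the plus strand.
NAB1: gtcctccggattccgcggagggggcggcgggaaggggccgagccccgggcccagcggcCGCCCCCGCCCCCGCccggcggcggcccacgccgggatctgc
NAB2: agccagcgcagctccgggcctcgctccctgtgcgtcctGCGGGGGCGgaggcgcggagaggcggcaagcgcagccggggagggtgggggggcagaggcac
The NAB1 window held 2 matches that overlap each other, and the NAB2 window held 1. Over all genes, such a match was near its background in every class. Among all 27305 RefSeq promoter windows of 300 bases, 9.28% held the motif. Of the 8894 of them that belong to tested genes, 15.8% held it, against 14.2% of those higher in the knockout-labelled libraries after the correction, 16.7% of those lower and 16.1% of those not called. As deposited the order of higher and lower was reversed, with 16.9% of higher, 14.6% of lower and 15.6% of not called genes. A match is a string of letters and not a measured binding site. Genes with a match had a median change of 0.09 as deposited and -0.02 after the correction, beside 0.02 and -0.00 for genes without one.

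**Figure D1:**
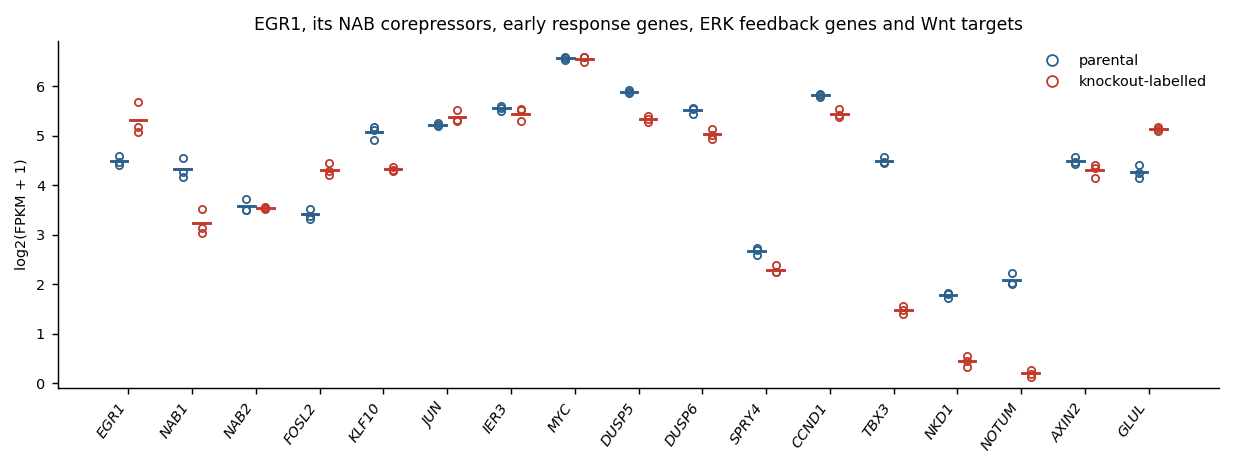
log2(FPKM + 1) of 17 genes in each library (circles, 3 per group) with the group mean (bar), for parental (blue) and knockout-labelled (red) MHCC97H. EGR1 and GLUL were higher and NAB1, TBX3, NKD1 and NOTUM lower in the knockout-labelled libraries, while the groups of NAB2, IER3 and MYC overlapped.

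Much of the difference between the groups followed the base composition of the transcripts. When the 10974 tested genes with a transcript in GENCODE release 29 were split into 10 equal classes by GC content, the median log2 change rose in every step, from -0.70 in the class of lowest GC content (30.2% to 38.5%) to 0.71 in the class of highest (61.6% to 74.5%). In the lowest class, 82.6% of genes were called lower and 1.37% higher, where called means an adjusted p under 0.05 in limma. In the highest class, 82.1% were called higher and 2.55% lower. Fitted per library, the slope on GC content was 0.504 (log2 per 10 percentage points) higher on average in the knockout-labelled libraries, and all 3 of their slopes lay above all 3 parental ones (exact permutation test, two-sided, p = 0.1). Transcript length added a smaller gradient in the other direction, since among transcripts of high GC content, the upper of 3 classes, the median change went from 0.69 for the shortest to 0.48 for the longest.

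The next values are from the most abundant genes of the lowest and highest classes, shown with sequence so that the difference in composition can be seen. The first 60 coding bases of CALM2, which encodes calmodulin, and RPL5, a ribosomal protein, stand here beside those of MIF, a cytokine, with every G and C in capitals (GENCODE release 29, GRCh38).
CALM2: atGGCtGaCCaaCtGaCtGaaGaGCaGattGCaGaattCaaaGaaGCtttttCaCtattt
RPL5: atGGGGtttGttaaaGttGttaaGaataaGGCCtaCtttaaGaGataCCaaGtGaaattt
MIF: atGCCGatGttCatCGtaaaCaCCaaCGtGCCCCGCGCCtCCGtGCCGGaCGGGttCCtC
Of these 60 bases, 23 in CALM2 and 19 in RPL5 are G or C, against 38 in MIF. CALM2 was at 334, 302 and 281 FPKM in the parental and 271, 308 and 290 FPKM in the knockout-labelled libraries, so its groups overlapped. RPL5 fell from 328, 320 and 325 FPKM to 227, 268 and 248 FPKM. MIF rose from 711, 798 and 871 FPKM to 1103, 1133 and 1344 FPKM. After the correction these changes became 0.59 for CALM2, 0.09 for RPL5 and -0.14 for MIF on the log2 scale, of which that of CALM2 passed the test (limma, adjusted p = 0.00187).

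**Figure D2:**
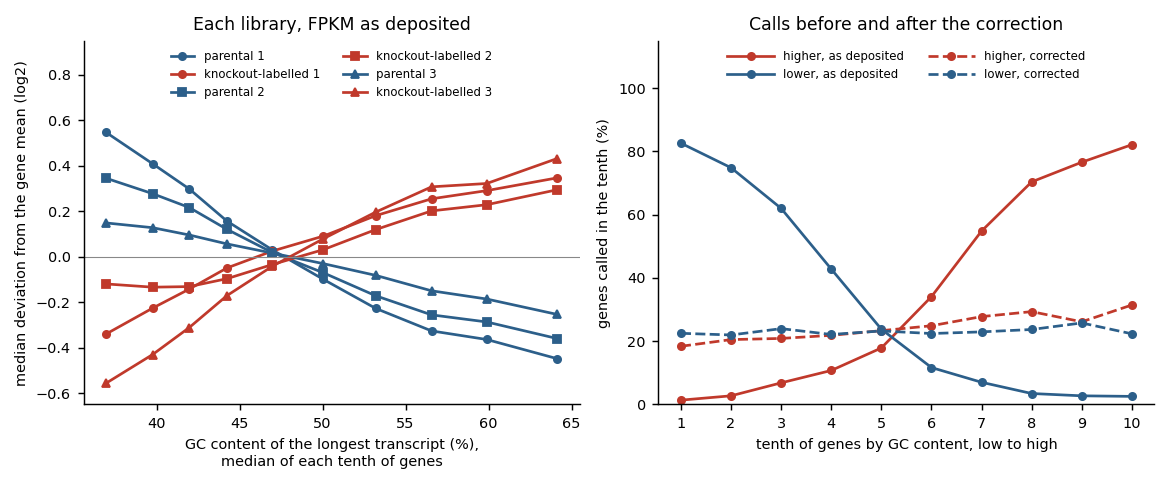
Left, median deviation of each library from the gene means (log2, FPKM as deposited) in 10 classes of genes by GC content, with parental libraries in blue and knockout-labelled in red. Right, share of genes called higher (red) or lower (blue) in each class, as deposited (solid) and after the correction (dashed), where the solid lines run from 82.6% lower to 82.1% higher and the dashed lines stay between 18.4% and 31.4%.

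The correction removed a smooth trend on GC content and length from each library, and it removes a biological change that follows these properties as well as a technical one. It narrowed the spread between replicates, from a median SD of 0.121 to 0.0797 (log2) in the parental and from 0.131 to 0.101 in the knockout-labelled libraries. Taking a fitted trend out of each library cannot raise the summed squared differences between replicates, so this narrowing is no test of the correction. Libraries of one group also differed among themselves along GC content, since the class of lowest GC content had median deviations of 0.55, 0.35 and 0.15 in the parental and -0.34, -0.12 and -0.56 in the knockout-labelled libraries. The share of FPKM from the mitochondrial genome moved with the groups too, at 12.9% to 14.0% in the parental and 7.36% to 10.8% in the knockout-labelled libraries. The part of these library properties in any result was not tested.

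As deposited, 66.3% of the 11577 genes were called, 34.8% higher and 31.5% lower, and the FPKM ranges of the groups did not overlap for 71.8%. Over the 10974 genes with a known GC content, 67.1% were called as deposited, 35.8% higher and 31.3% lower. With the correction, 47.6% of 10974 genes were called, of which 2684 were higher (24.5%) and 2535 lower (23.1%). Genes called in one direction in both fits numbered 3451 (31.4%), with 1943 higher (17.7%) and 1508 lower (13.7%). A further 3635 genes were called only as deposited, 1490 only with the correction, and 278 were called in both fits but in opposite directions. A corrected change of at least 2-fold that passed the test was found for 302 genes (2.75%), 148 of them higher (1.35%) and 154 lower (1.4%), and as deposited such a change was found for 1029 genes (8.89%). Scaling every library to one total moved the calls as deposited from 4029 higher and 3642 lower to 3155 higher and 4432 lower, with the median change of all genes going from 0.02 to -0.11. After the correction that scaling gave 2671 higher and 2579 lower. Values that follow are log2 changes after the correction unless said otherwise, and a gene is said to rise or fall only where it was called.

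Of the 8 largest rises that held in both fits, BEST1 was the largest and ALB the next, and 3 belong to the list of secreted liver proteins. ALB, which encodes serum albumin (chr4:73397114-73421412), was listed at 1.21, 0.611 and 0.83 FPKM in the parental and 16.5, 15.1 and 14.1 FPKM in the knockout-labelled libraries. Its parental mean was 0.885 FPKM, so it was tested only through the knockout-labelled libraries. FGA and FGB, 2 of the 3 fibrinogen chains, went from 3.34, 3.17 and 3.06 FPKM to 23.9, 25.2 and 25.4 FPKM and from 3.05, 2.04 and 2.8 to 16.6, 19.5 and 16.3 FPKM. Their changes were 3.44 ± 0.11 for ALB, 2.89 ± 0.07 for FGA and 2.64 ± 0.11 for FGB (limma, adjusted p of 1.25e-06, 3.21e-07 and 4.67e-06). PCDH7, a protocadherin, rose from 4.09, 4.39 and 3.95 to 30.97, 26.6 and 24.3 FPKM. CD24, a surface glycoprotein often raised in liver cancer, rose from 17.6, 16.1 and 16.1 to 102, 110 and 96.8 FPKM. In each of these genes the replicates lay close together. The genes were picked for large changes and groups that do not overlap, so the distance between their groups is not a further result.

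Another 3 of the 8 rest on less certain values. BEST1, an anion channel gene, was uneven within groups, at 28.7, 4.17 and 0.834 FPKM in the parental and 78.2, 68.4 and 216 FPKM in the knockout-labelled libraries, with a change of 3.74 ± 0.93 (limma, adjusted p = 0.0124). RAB4B-EGLN2, a readthrough transcript, was listed at 0, 8.44 and 0 FPKM against 44.8, 18 and 37.1 FPKM, with a change of 3.28 ± 0.81 (limma, adjusted p = 0.0118), and 4 genes on the same strand overlap it. UGT1A3, a glucuronosyltransferase, went from 3.04, 1.03 and 4.07 to 17.95, 12.4 and 25.3 FPKM, and it overlaps 8 genes on the same strand with which it shares exons, so its reads could be split between them.

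The 8 largest falls that held in both fits were, in order, those of SPANXA2, RBP4, SPANXA1, VCAN, SPANXB1, TBX3, SPANXC and MAGEA6. SPANXA1, SPANXA2, SPANXB1 and SPANXC, near-identical X-linked genes normally used in sperm cells, together fell from levels of 8.24 to 67.7 FPKM in the parental libraries to between 0 and 3.22 FPKM. Their reads cannot be assigned to one copy with certainty. MAGEA6, another X-linked cancer-testis gene with close paralogs, fell from 22.6, 21.04 and 22.99 to 4.46, 3.46 and 2.28 FPKM. Of 27 cancer-testis antigens listed, which do not include the SPANX genes, 4 were tested, and 1 rose and 3 fell after the correction (as deposited 1 and 1). VCAN, the matrix proteoglycan versican, fell from 20.8, 20.04 and 19.2 to 0.445, 0.273 and 0.278 FPKM, a change of -3.50 ± 0.08 (limma, adjusted p = 3.21e-07). TBX3, a T-box transcription factor of liver and limb development, fell from 21.1, 20.8 and 22.7 to 1.94, 1.63 and 1.78 FPKM, by -3.25 ± 0.07 (limma, adjusted p = 3.07e-07). RBP4, the plasma carrier of retinol, fell from 23.4, 22.5 and 25.3 to 1.38, 0.69 and 0.736 FPKM, by -4.30 ± 0.16 (limma, adjusted p = 1.85e-06). RBP4, VCAN, SPANXB1 and SPANXC had knockout-labelled means of 0.937, 0.332, 0.088 and 0.563 FPKM, so they were tested only through the parental libraries.

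**Figure D3:**
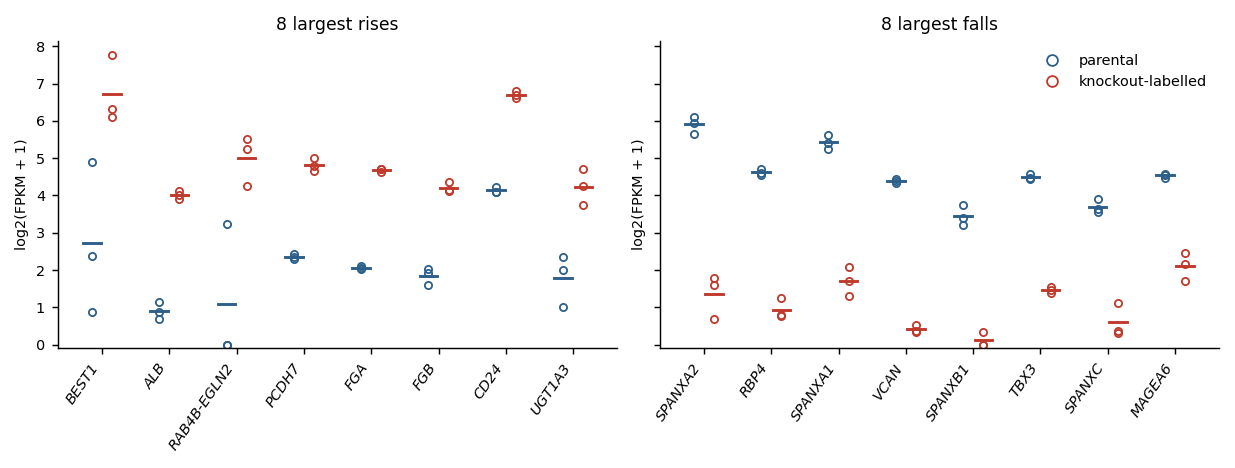
log2(FPKM + 1) in each library (circles) with group means (bars) for the 8 largest rises and the 8 largest falls that held in both fits, parental in blue and knockout-labelled in red. BEST1 and RAB4B-EGLN2 varied most within the parental group, where BEST1 ran from 0.834 to 28.7 FPKM. In every gene shown the groups did not overlap, which the rule that picked these genes required.

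A few genes were listed at 0 in one group. SLITRK6, NMU, IL2RG, CPA6 and SOX5 were at 1 FPKM or more in all 3 parental libraries and listed at 0 in all 3 knockout-labelled ones. SLITRK6, a transmembrane protein known from neurons, was the highest of them, at 2.27, 2.05 and 1.64 FPKM. No gene showed the reverse pattern. An entry of 0 in a table without counts can also be a failed estimate.

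Among secreted liver proteins, many more rose than fell. Of 42 members, 17 had a mean of at least 1 FPKM and were tested. Here, in the lists below and in the chromosome regions, a member low in one group could pass only through the other. Of these 17, 11 rose and 1, RBP4, fell, with a median change of 0.43 beside -0.01 for all genes tested. As deposited 10 rose and 3 fell. In both fits 8 rose, and 1 member was called in opposite directions. FGG, the remaining fibrinogen chain, went from 2.36, 1.68 and 1.29 to 7.23, 9.07 and 6.44 FPKM. TF, the iron carrier transferrin, rose by 1.31 and F2, prothrombin, by 0.62. ITIH2, a serum protein that binds hyaluronan, rose by 0.70. The 12 hepatocyte markers, ALB and FGB among them, summed to 69.1 to 76.0 FPKM in the parental and 103 to 108 FPKM in the knockout-labelled libraries. Within that sum, ALB went from a mean of 0.885 to 15.2 FPKM and FGB from 2.63 to 17.5 FPKM. Of the 7 hepatocyte markers tested, 4 rose and 1 fell after the correction (as deposited 4 and 1).

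Of 22 transcription factors of the liver, 13 were tested, and 6 rose and 4 fell after the correction. As deposited 6 rose and 1 fell, and the 1 that fell in both fits was HHEX, which lies in the falling region of chromosome 10 described further on. NR1H4, the bile acid receptor FXR, rose by 0.85, from 6.40, 6.58 and 6.41 to 9.17, 9.23 and 8.76 FPKM. FOXA1, a pioneer factor, rose by 0.50. HHEX, a homeobox factor of early liver, fell by 0.33. HNF4A, a central regulator of hepatocytes, was at 9.97, 7.57 and 11.4 FPKM against 8.90, 8.97 and 5.87 FPKM and did not pass in either fit (as deposited -0.26, corrected -0.45). It passed as lower, at -0.60 or -0.57, without parental replicate 2 or knockout-labelled replicate 2 (limma, adjusted p = 0.0242 and 0.0341).

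Drug-handling genes were called in every case after the correction, 10 of 14 tested (of 26 listed) higher and 4 lower, beside 6 and 3 as deposited. CYP2B6, a cytochrome P450, rose from 1.44, 1.18 and 1.22 to 8.12, 6.61 and 7.59 FPKM, by 1.73 ± 0.10 (limma, adjusted p = 1.82e-05). CYP3A5, another, fell from 23.96, 20.3 and 17.04 to 5.25, 8.21 and 4.22 FPKM, by -1.36 ± 0.17 (limma, adjusted p = 0.000482). GSTA1 and GSTA2, glutathione transferases, rose by 0.95 and 0.96. ABCC2, which exports conjugates into bile, fell by 0.90. UGT1A1 rose by 1.52 and UGT1A6 fell by 0.60, with the exon sharing noted for UGT1A3.

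MHC class I genes, which display peptides to T cells, were mostly higher. All 15 members were tested, of which 12 rose and 1, HLA-F at -0.29, fell (as deposited 12 and 0), and the median change was 0.65 (as deposited 0.86). The fall of HLA-F did not pass without parental replicate 1 or 3 or without knockout-labelled replicate 1 or 2 (limma, adjusted p of 0.113 to 0.141). HLA-C rose from 8.57, 8.13 and 9.35 to 32.0, 30.6 and 36.1 FPKM, and HLA-B from 0.682, 0.622 and 0.748 to 4.79, 3.34 and 4.62 FPKM. HLA-E rose by 0.75 and B2M, the light chain, by 0.73. The immunoproteasome subunits PSMB8, PSMB9 and PSMB10, which shape the peptides, rose by 0.80, 1.23 and 0.87, and NLRC5, the class I transactivator, rose by 0.48. HLA-B, PSMB9 and NLRC5 had parental means of 0.684, 0.528 and 0.484 FPKM, so they were tested only through the knockout-labelled libraries. HLA genes are polymorphic and alike, so mapping to the reference can shift reads between them. Interferon-stimulated genes gave 4 higher and 1 lower of 17 tested of 30 (as deposited 9 and 0). After the correction their share called higher was near the 24.5% of all genes tested, and 12 of the 17 were not called. Among those that rose, OAS1, a sensor of double-stranded RNA, rose by 0.64 and IFITM3 by 0.32.

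Feedback genes of ERK signalling, the pathway that induces EGR1, were mostly lower once composition was allowed for. Of 17 tested of 19, none rose and 12 fell after the correction, with a median change of -0.40, beside 24.5% higher and 23.1% lower of all genes tested. As deposited 1 rose and 6 fell, with a median of -0.10. The share that fell as deposited was near the 31.5% of all genes tested. In both fits 6 fell, and 1 member was called in opposite directions. DUSP5, a nuclear ERK phosphatase, went from 58.5, 59.8 and 56.9 to 39.5, 37.7 and 41.1 FPKM, by -1.02 ± 0.06 (limma, adjusted p = 3.06e-05). DUSP6, a cytoplasmic ERK phosphatase, went from 45.9, 45.97 and 42.6 to 31.1, 34.1 and 29.7 FPKM, by -0.43. CCND1, a list member that encodes cyclin D1 and not an inhibitor of ERK, fell by 0.51. SPRY4, an inhibitor upstream of ERK, fell by 0.48. DUSP5, DUSP6, CCND1 and SPRY4 were called lower in both fits.

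Immediate early and AP-1 genes, the class to which EGR1 belongs, depended on the correction. As deposited, 8 of 17 tested (of 20) rose and 1 fell, and after the correction 1 rose and 6 fell. FOSL2, an AP-1 subunit, rose in both fits, from 9.01, 9.46 and 10.5 to 20.8, 17.5 and 18.5 FPKM. KLF10, a zinc finger repressor induced by TGF-beta, fell in both, from 35.2, 33.8 and 29.2 to 18.9, 19.6 and 18.4 FPKM. MYC was at 95.6, 91.8 and 94.6 FPKM against 95.5, 88.9 and 95.9 FPKM, with overlapping groups, and was lower only relative to transcripts of like composition, by -0.41. JUND, an AP-1 subunit with a GC-rich transcript, rose by 0.82 as deposited and stood at 0.06 after the correction, which did not pass.

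Wnt target genes were mostly lower. Of 11 tested of 18, 2 rose and 8 fell (as deposited 2 and 5), with a median change of -0.46, and TBX3 is among them. NOTUM, a secreted enzyme that inactivates Wnt ligands, fell from 3.04, 3.00 and 3.66 to 0.0933, 0.139 and 0.208 FPKM, by -2.60 ± 0.09 (limma, adjusted p = 1.25e-06). NKD1, another feedback inhibitor, fell from 2.31, 2.55 and 2.46 to 0.469, 0.252 and 0.361 FPKM. AXIN2 and RNF43, which also dampen the pathway, fell by 0.46 and 0.53. GLUL, glutamine synthetase, a Wnt target of hepatocytes around the central vein, went the other way and rose from 16.8, 17.9 and 20.2 to 35.2, 33.3 and 34.1 FPKM.

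SR and hnRNP proteins, which bind pre-mRNA and steer its splicing, have AT-rich transcripts, and their rise showed mainly once composition was allowed for. After the correction 21 of 33 tested (of 38) rose and 1, SRSF11, fell, with a median change of 0.40, beside 12 and 5 as deposited with a median of 0.08. SRSF9 rose in both fits, from 69.2, 66.8 and 70.2 to 121, 119 and 128 FPKM. HNRNPD rose by 1.18 and HNRNPA3 by 0.98. The fall of SRSF11, by 0.38, did not pass without parental replicate 1 or 2 or without knockout-labelled replicate 1 or 3 (limma, adjusted p of 0.0564 to 0.0958).

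Machinery of the mitochondrion divided by genome. Of 13 protein genes of the mitochondrial genome, 7 fell and 1, MT-CO3, rose, with a median of -0.47 (as deposited 8 fell and 0 rose). The rise of MT-CO3, by 0.39, did not pass without parental replicate 2 or 3 (limma, adjusted p = 0.0659 and 0.0578). MT-ND4 was at 5817, 5467 and 5045 FPKM in the parental and 2578, 4190 and 2948 FPKM in the knockout-labelled libraries. Nuclear subunits of the respiratory chain rose in 29 and fell in 12 of 77 tested cases (as deposited 37 and 17). COX5B, a subunit of complex IV, rose from 35.9, 40.1 and 47.01 to 108, 126 and 131 FPKM, by 1.25 ± 0.05 (limma, adjusted p = 4.67e-06). ATP5MD, a small subunit of ATP synthase, fell from 180, 175 and 179 to 39.6, 60.96 and 43.0 FPKM. Mitochondrial ribosomal proteins rose in 35 and fell in 13 of 78 cases (as deposited 37 and 13), and MRPL34 and MRPL27 rose by 1.04 and 1.27.

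Cytosolic ribosomal proteins split, with 18 higher and 28 lower of 85 and a median of -0.05, where as deposited 25 were higher and 23 lower with a median of 0.07. RPS27 fell from 511, 664 and 767 to 165, 201 and 187 FPKM, RPS21 from 503, 561 and 663 to 205, 285 and 255 FPKM, and RPS28 from 62.5, 64.2 and 73.4 to 39.98, 44.01 and 40.5 FPKM. Their changes were -1.62, -1.73 and -1.35. Ribosomal protein genes have many processed copies in the genome, so their reads are hard to place. Proteasome subunits rose in 21 and fell in 5 of 46 cases (as deposited 24 and 11). Aminoacyl-tRNA synthetases, which load tRNAs, fell in 13 and rose in 4 of 37 cases after the correction, but as deposited 14 rose and 13 fell, with GARS1 at -0.60 and HARS1 at 0.64.

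Cholesterol synthesis genes were more often higher, 15 of 25 against 2 lower, with a median of 0.22 (as deposited 16 and 4). NSDHL, an enzyme of the late pathway, rose by 0.84, from 12.1, 14.3 and 14.9 to 31.2, 27.8 and 33.7 FPKM. LSS, lanosterol synthase, rose by 0.54, from 5.88, 6.70 and 7.47 to 14.2, 14.3 and 15.0 FPKM.

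Stress genes gave no one direction. Of 23 ATF4 and unfolded protein response genes, 8 rose and 6 fell (as deposited 11 and 7). NUPR1 rose from 3.97, 5.78 and 5.74 to 21.5, 21.5 and 23.4 FPKM, while ASNS, asparagine synthetase, fell from 53.4, 52.5 and 54.2 to 24.8, 24.9 and 28.98 FPKM. Among NRF2 genes, 9 rose and 3 fell of 21 (as deposited 13 and 4), with HMOX1, heme oxygenase 1, up by 0.79. IL1B, an inflammatory cytokine, rose from 0.743, 0.962 and 1.36 to 3.50, 3.82 and 3.98 FPKM. Of 10 BMP response genes, 4 rose and 3 fell (as deposited 6 and 2), with ID3 at 0.76 and ID2 at -1.04.

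Of 30 mitosis genes, 12 fell and 6 rose (as deposited 15 and 8). Of 30 DNA replication genes, 8 fell and 5 rose, and as deposited 8 fell and 8 rose. MKI67, the Ki-67 antigen, went from 23.4, 27.3 and 27.6 to 17.1, 12.4 and 11 FPKM, by -0.78. KIF11, the spindle kinesin, fell by 0.77. Chromatin modifiers fell in 11 and rose in 2 of 31 cases (as deposited 13 and 4), and DNMT3B, a DNA methyltransferase, fell by 0.71. DNA repair genes gave 15 lower and 5 higher of 27 as deposited, but 6 lower and 4 higher after the correction. The corrected shares of DNA replication and DNA repair genes called lower were near the 23.1% of all genes tested. In both fits 5 repair genes fell and 3 rose. Without members of the chromosome regions described further on, 5 fell and 3 rose of 24 after the correction. Among those that fell, FANCA, of the Fanconi pathway and inside such a region, fell by 0.97. XRCC2, of homologous recombination, fell by 0.75.

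Epithelial genes turned with the correction, since 6 of 13 rose and 4 fell as deposited, with a median of 0.29, and 4 rose and 7 fell after it, with a median of -0.23. In both fits 3 epithelial genes rose and 4 fell, and 2 were called in opposite directions. Among those that fell, SPINT1, a protease inhibitor of epithelia, went from 10.7, 10.3 and 12.1 to 6.17, 5.62 and 6.87 FPKM. TJP1, a tight junction scaffold, fell from 33.7, 33.6 and 29.5 to 18.1, 13.8 and 13.7 FPKM. Of 13 mesenchymal genes, 2 rose and 5 fell (as deposited 3 and 3). In both fits 1 of them rose and 2 fell, the falls being MMP2 at -1.10 and ZEB1 at -0.43. LAMB1, a laminin chain, rose by 1.14 while LAMB3, another, fell by 1.20. BIK, a BH3-only apoptosis gene, fell from 4.62, 5.27 and 4.47 to 1.13, 1.05 and 0.703 FPKM.

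**Figure D4:**
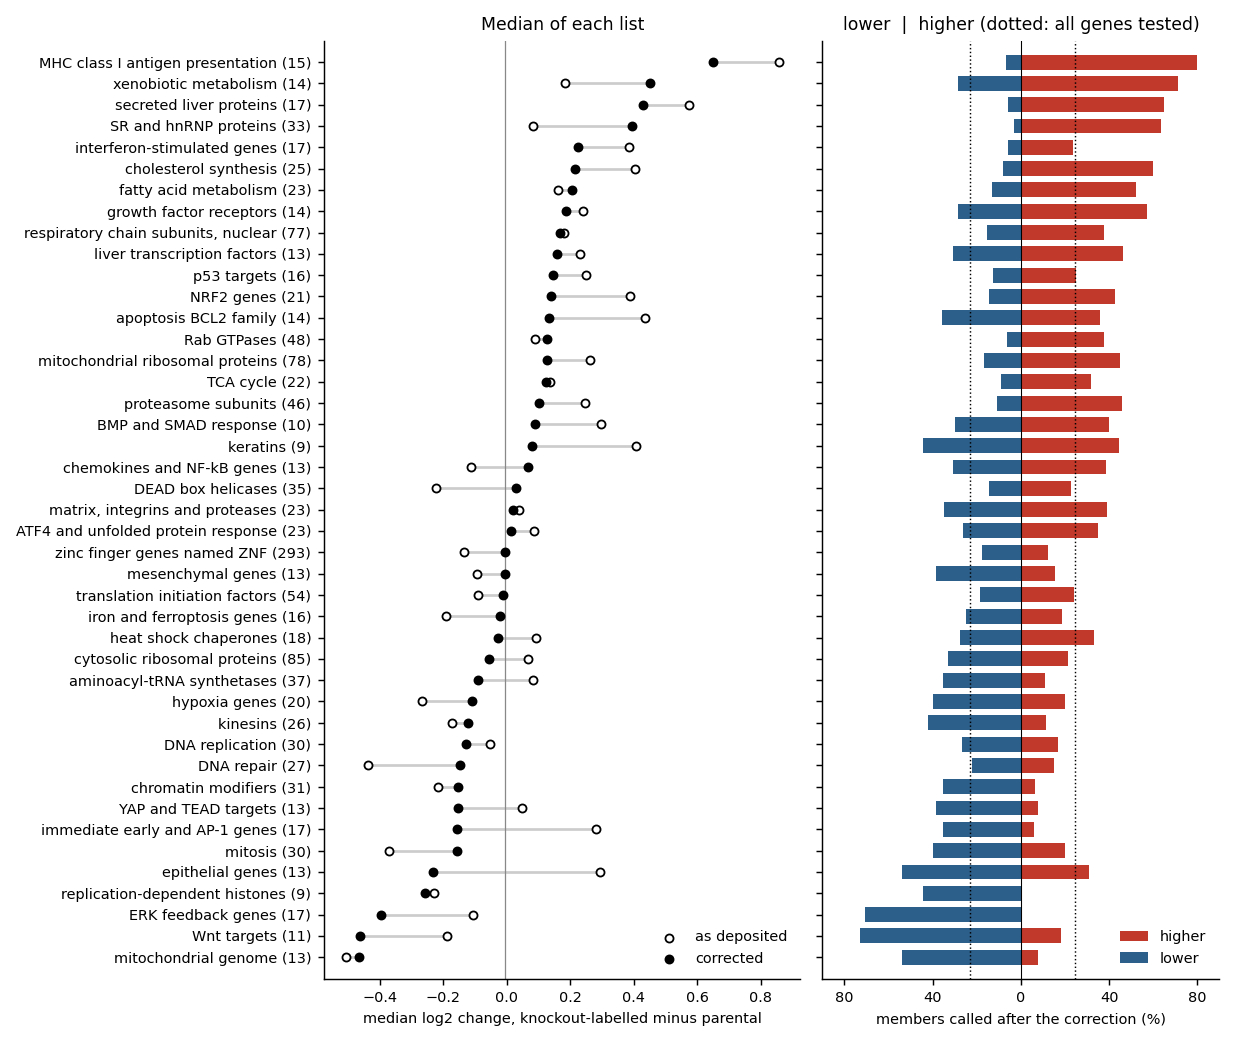
Left, median log2 change of each gene list with at least 9 members tested, as deposited (open) and after the correction (filled), with the number of members tested in brackets and all genes tested as the grey line. Right, share of members called higher (red) or lower (blue) after the correction, with all genes tested as dotted lines at 24.5% and 23.1%, where, of the lists shown, MHC class I, xenobiotic and secreted liver genes extend farthest to the higher side and Wnt and ERK feedback genes to the lower.

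Corrected changes were shared by neighbours along some chromosomes. The tested genes were placed in 276 blocks of about 40 neighbours. The library medians of the groups did not overlap, with the knockout-labelled libraries higher, in 28.3% of blocks, and lower in 25.4%, and 17 blocks had a median change beyond 0.25 in size, against 0 in the PLC/PRF5 comparison. The block medians had an SD of 0.128 in MHCC97H and 0.0623 in PLC/PRF5. These blocks joined into 8 regions with 671 genes, of which 71.1% were called, against 46.0% of the genes outside. Because the regions were picked by the size of their corrected changes, a higher share of called genes inside them follows from that choice. The regions and the size limit were also chosen after the values were seen, so these counts are a description.

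The longest of them was on chromosome 10 and took in much of its long arm. Between chr10:73909177 and 133421307, 174 of 230 genes fell and 9 rose, with a median of -0.49 (as deposited -0.51). The median deviations were 0.25, 0.23 and 0.24 in the parental and -0.23, -0.25 and -0.23 in the knockout-labelled libraries. RBP4, DUSP5, PLAU, BNIP3, MXI1, KIF11, MKI67, HHEX, ABCC2 and ATP5MD lie in it, so several of the falls above stand among falling neighbours. HABP2, a plasma protease, was an exception there, rising from 0.406, 0.778 and 0.462 to 4.49, 4.29 and 5.48 FPKM.

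The start of the same chromosome went the other way. From chr10:134465 to 27155266, 52 of 78 genes rose and 1 fell, with a median of 0.39 (as deposited 35 and 5, median 0.15). GATA3, a transcription factor, rose there from 3.51, 3.05 and 2.85 to 8.53, 7.29 and 7.47 FPKM, and IL15RA, a receptor chain for interleukin 15, from 2.97, 3.38 and 2.86 to 14.1, 14.1 and 18.8 FPKM, and ITIH2 lies there too. On chromosome 2, between chr2:20032650 and 47810101, 80 of 123 genes rose and 1 fell, with a median of 0.37 (as deposited 50 and 15, median 0.16). EPAS1, which encodes HIF-2 alpha, rose from 15.5, 15.6 and 16.3 to 39.5, 34.1 and 35.2 FPKM in that stretch, and FOSL2 and CALM2 lie there too.

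The end of chromosome 16 and the start of chromosome 21 were lower. From chr16:74621394 to 90044975, 54 of 82 genes fell and 6 rose, with a median of -0.42, which was -0.08 as deposited. SLC7A5, an amino acid transporter, fell there from 81.6, 91.2 and 97.98 to 64.7, 56.5 and 64.1 FPKM, and FANCA lies in the same stretch. From chr21:5079294 to 33479348, 24 of 37 genes fell and 1 rose, with a median of -0.36 (as deposited -0.51). SOD1, the cytosolic superoxide dismutase, fell there from 204, 193 and 198 to 145, 155 and 177 FPKM. A stretch of chromosome 5 (chr5:96525267-123036741) had a median of 0.45 over 39 genes, but -0.06 as deposited and -0.05 with length alone corrected, so its direction rests on the GC term. The other 2 regions held 41 genes each, on chromosomes 11 and 16, with medians of 0.26 and 0.27 that were 0.67 and 0.71 as deposited.

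Lists with members in the regions were counted again without them. ERK feedback genes without DUSP5 gave 11 lower and none higher of 16, secreted liver proteins 10 higher and none lower of 15, and MHC class I genes 10 higher and 1 lower of 13. NRF2 genes gave 5 higher and 3 lower of 16, against 9 and 3 of 21 with the regions, and immediate early genes 6 lower and none higher of 15, their only rise being that of FOSL2 on chromosome 2. No Wnt target tested lay in a region.

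**Figure D5:**
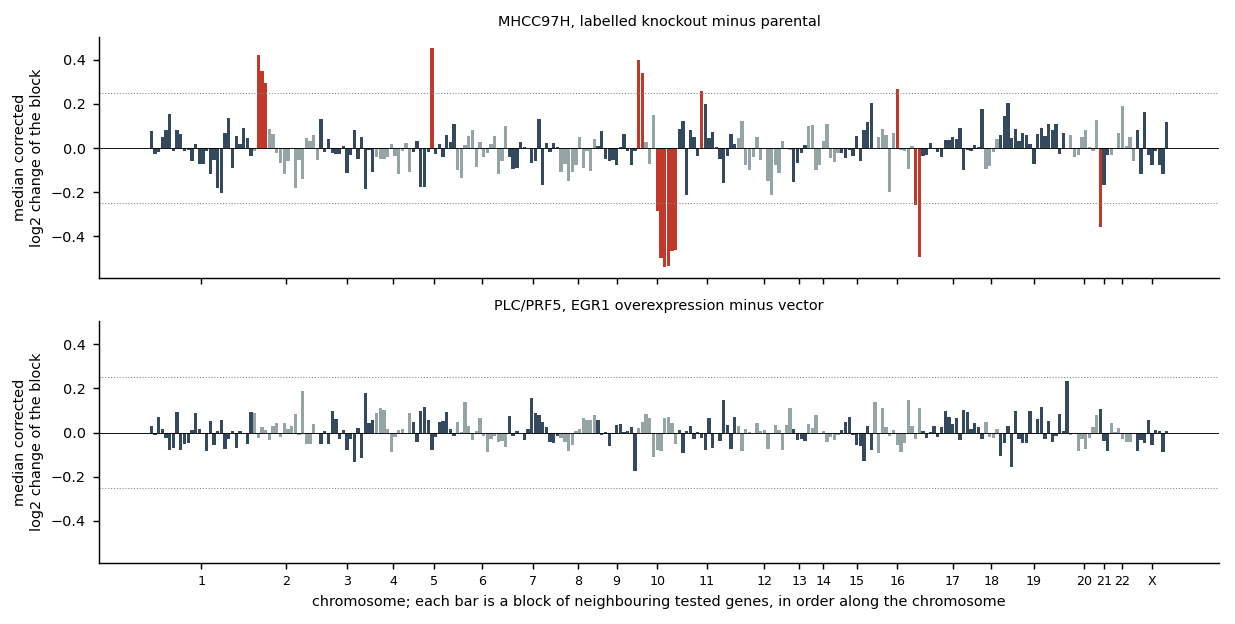
Median corrected log2 change of blocks of neighbouring tested genes, in order along the chromosomes, for MHCC97H (top) and PLC/PRF5 (bottom), with blocks beyond 0.25 in size (dotted lines) in red. MHCC97H has 17 such blocks, which include 6 in a row on chromosome 10, and PLC/PRF5 has 0.

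Genes that answered to added EGR1 in PLC/PRF5 had no common direction in MHCC97H. In PLC/PRF5, 76 of 10999 genes (0.691%) rose at least 2-fold with EGR1 overexpression in both fits, and 49 of them, EGR1 included, were tested in MHCC97H. There 12 were higher and 19 lower after the correction (as deposited 18 and 15), with a median of -0.10. Of all genes tested, 24.5% were higher and 23.1% lower after the correction, with a median of -0.01. As deposited, 34.8% of all genes were higher and 31.5% lower. IGFBP2, an insulin-like growth factor binding protein, rose in both lines, and in MHCC97H went from 28.9, 30.7 and 34.5 to 214, 206 and 256 FPKM. APOA1, DOK7 and CPE, which were among the largest rises in PLC/PRF5, were below 1 FPKM in all 6 MHCC97H libraries.

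Markers of blood cells were near 0. Leukocyte markers summed to at most 1.92 FPKM and erythroid markers to at most 0.549 FPKM in any of the 6 libraries. Fibroblast markers summed to 7.49 to 10.9 FPKM in the parental and 1.04 to 1.54 FPKM in the knockout-labelled libraries, and none of the 6 was at 1 FPKM or more in all libraries. Cholangiocyte markers summed to 383 to 417 FPKM against 540 to 562 FPKM, and 4 of 6 were at 1 FPKM or more in all libraries, so both groups carried biliary markers beside hepatocyte genes. The part of these markers in the results was not tested.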

How the data were processed

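RNA was sequenced from 6 MHCC97H libraries, 3 parental and 3 labelled EGR1 knockout, after oligo(dT) selection and treatment with a duplex-specific nuclease, which lowers abundant sequences and can shift levels. The deposited values are FPKM per gene, made by the authors with StringTie on hg38 per the labels, and the aligner and annotation are not given in the sources used here. No counts are given and low FPKM values showed no whole-read steps, so sequencing depth is unknown and no counting interval is printed. Total FPKM was 376335 to 382430 in the parental and 407758 to 437652 in the knockout-labelled libraries, and 6051 to 6624 genes per library were listed at 0.

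Genes with a mean of at least 1 FPKM were tested as log2(FPKM + 1), with a pseudocount of 1, in limma 3.58.1 (R 4.3.3, trend) over the 6 libraries, with Benjamini-Hochberg adjustment over all genes tested and a threshold of 0.05. Fold changes on this scale understate the changes of low genes. For the corrected fit, GC content and log2 length of each gene's longest transcript in GENCODE release 29 were fitted per library with natural splines of 5 degrees of freedom each, and the fit was removed. Of 22963 names, 19808 matched. The fit was tested on simulated data.

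Named genes were EGR1, its paralogs and NAB genes, the 8 largest rises and falls called in both fits with groups that do not overlap and a mean of at least 5 FPKM in the higher group, up to 3 members per list with the largest changes called in both fits, up to 2 members per list called in opposite directions, genes listed at 0 in one group, the most abundant genes of the outermost classes by GC content, and the largest rises in PLC/PRF5. Other list members, genes of the chromosome regions and genes singled out elsewhere were chosen after their values were seen. The members and lists were chosen with earlier results of these data known. The labels call the libraries of a group biological replicates and do not say whether they came from separate cultures, so p-values measure only the spread between these libraries.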

Additional observations from a re-analysis of the deposited data

How the results depend on the processing

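Replicate numbers did not pair the libraries. Residuals of same-numbered libraries correlated across genes at 0.04, 0.03 and 0.48 as deposited and at 0.02, 0.03 and 0.25 after the correction. With a replicate block 7987 genes were called as deposited and 5234 after the correction, and not every library correlated best with its own number. EGR1 was higher under every alternative. As deposited it always passed the test, and the change was 0.64 to 0.94 when libraries were left out in turn. After the correction it passed, at an adjusted p under 0.05 in limma, with the replicate block (0.42) and all 12 libraries (0.42), with genes above 0 FPKM in any library (0.55), with length alone corrected (0.75) and with properties averaged over transcripts (0.55), and it was 0.22 to 0.56 when libraries were left out. Counts of 7671 and 5219 called genes became 1029 and 302 with at least a 2-fold change, 3218 corrected genes passed at an adjusted p under 0.01, and 9089 were called with genes above 0 FPKM in any library, where 16191 were tested. Leaving out libraries gave 6419 to 7521 genes as deposited and 3930 to 5276 corrected. The slope difference on GC content was 0.348 with all genes above 0 FPKM, and 0.451 to 0.559 when libraries were left out.

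Some named genes changed sign. With length alone corrected, CALM2 was at -0.040, JUN at 0.11, MIF at 0.27 and RPL5 at -0.75. With genes above 0 FPKM in any library, MIF was at 0.15. Quantile normalization gave -0.054 for JUN as deposited and -0.19 for JUND and -0.13 for RPL5 after the correction. RPL5 was at -0.10 with properties averaged over transcripts, and JUND at -0.017 with a pseudocount of 0.1 and at -0.083 with a mean of at least 5 FPKM. Leaving out libraries in turn gave -0.028 to 0.026 for MYC and -0.076 to 0.044 for NAB2 as deposited. The causes were not tested. Over the alternatives, the median of the falling region of chromosome 10 ran from -0.56 to -0.41, and that of the chromosome 5 region from -0.05 to 0.58. The settings that leave out these regions or follow their medians were added after the data were seen.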

Other observations

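Other gene groups gave smaller or mixed differences. Of 20 tested hypoxia genes, 4 rose and 8 fell after the correction (as deposited 5 and 9), with CA12, a carbonic anhydrase at the cell surface, rising and BNIP3, a mitophagy receptor inside the chromosome 10 region, falling in both fits. Among 23 tested genes of fatty acid metabolism, 12 rose and 3 fell (as deposited 10 and 4), and among 22 of the TCA cycle, 7 rose and 2 fell (as deposited 10 and 2). Rab GTPases, which direct vesicle traffic, rose in 18 and fell in 3 of 48 cases after the correction, and in 21 and 15 as deposited. Kinesins, the motors of microtubules, fell in 11 and rose in 3 of 26 cases (as deposited 11 and 5). Of 293 tested zinc finger genes named ZNF, 69 were higher and 110 lower as deposited, and 36 and 52 after the correction, with a median change of -0.13 that became -0.00.

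Growth factor receptors were called in 12 of 14 tested cases, 8 higher and 4 lower (as deposited 6 and 3). KDR, a receptor for VEGF, rose by 0.99, from 0.490, 0.527 and 0.495 to 1.99, 1.76 and 1.66 FPKM. EGFR fell by 0.49, from 12.99, 14.5 and 13.5 to 10.3, 7.86 and 7.28 FPKM. Of 16 tested p53 targets, 4 rose and 2 fell (as deposited 8 and 6), and of 18 heat shock chaperones, 6 rose and 5 fell (as deposited 8 and 5). Among 583 tested loci that the assembly lists without a gene name, 51.5% were called as deposited, 17% higher and 34.5% lower, and none could be corrected for composition.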
